A study of Mus musculus with 6 samples.

Results

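Fatty acid oxidation genes encode the enzymes and carriers that burn fatty acids in mitochondria and peroxisomes. A list of 31 such genes, named by function and not by their values here, was followed in offspring adipose tissue. Of these, 24 were described as mitochondrial (with the cytosolic thioesterase gene Acot1 beside its mitochondrial paralog) and 7 as peroxisomal. Each was represented by the probe set that carries its symbol alone and had the highest mean, and 30 of the 31 had one among 22180 genes so measured. Cpt1b, the muscle form of carnitine palmitoyltransferase, shared its 1 probe set with other genes and has no value here.

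The samples were adipose tissue of mouse offspring aged 32 weeks. In 3 samples the mother had received chromium restriction feed and in 3 a control diet, and each sample was hybridised to 1 array. The labels name no strain, sex or fat depot. They do not say whether samples of a group are different animals, and the p-values therefore cover only the spread between these samples. All values are on the log2 scale of the deposited table, differences are chromium restriction minus control, and a gene was called at a limma p of 0.05 adjusted by Benjamini-Hochberg over all 22180 genes.

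In mitochondrial beta-oxidation a fatty acid is carried across the membranes as a carnitine ester. It is then shortened by repeated rounds of dehydrogenation, hydration, a further dehydrogenation and thiolytic cleavage, and the electrons pass through the electron transfer flavoprotein to the respiratory chain. Peroxisomes shorten very long and branched chains with their own set of enzymes. Brown adipocytes and hepatocytes are both known for high fatty acid oxidation, and PPAR nuclear receptors switch on many genes of the pathway.

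Several arrays stood apart in ways that touch these genes. Averaged over 7 liver genes, the level was 11.33 in chromium restriction replicate 1, 10.90 in replicate 3, 6.55 in replicate 2 and 6.56 to 6.94 in the controls. Over the whole list of 12 liver markers the mean level was 11.42 and 10.95 against 6.79 and 6.84 to 7.20 on the same arrays. Cyp2e1, among the 12, went the other way. It was at 12.785 to 12.876 in the chromium restriction group and at 13.11 to 13.28 in the controls. Ucp1, the uncoupling protein of brown fat, was at 10.25 in control replicate 1, 7.37 in control replicate 3 and 4.87 to 4.94 on the other 4 arrays. The mean of 11 brown fat markers was 7.56 in control replicate 1 and 6.42 in control replicate 3, against 5.82 to 5.96 elsewhere. Not every marker on that list followed Ucp1. Zic1 and Lhx8 were at 4.68 to 4.91 everywhere, and Dio2 was at 4.87 to 5.14. Fabp3, in a row with extra digits (below), was at 8.70, 8.79 and 8.74 in control replicates 1 to 3. In the chromium restriction group Fabp3 was listed at 9.82 to 9.88 and called higher (1.11, limma adjusted p = 0.00351). The mean of 10 intestinal markers was 6.10, 7.03 and 5.98 in chromium restriction replicates 1 to 3 and 5.42 to 5.60 in the controls. All 10 had a higher chromium restriction mean, and Fabp2 (1.98) and Apoa4 (2.96) were called higher, in plain rows (limma adjusted p = 0.00358 and 0.012). With the rows with extra digits left out of the test, 0 genes were called, so neither of these was. Fabp2 was at 7.15 to 7.31 and Apoa4 at 9.47 to 10.34 on the chromium restriction arrays, against at most 5.50 and 7.32 in the controls. Sis, Muc13 and Krt20 were at 7.09, 7.55 and 7.54 in replicate 2. In replicates 1 and 3 they were at 4.55 to 4.62, 4.85 to 5.02 and 5.10 to 5.34. Their controls were at 4.53 to 4.60, 4.86 to 5.01 and 5.34 to 5.47. The mean of 9 white adipocyte markers was 12.07 to 12.23 in the chromium restriction group and 12.24 to 12.34 in the controls. Of these 9, 8 had a lower chromium restriction mean (56.8% of all genes) and 3 lay below all controls on every array (6.06% of all genes). In plain rows 2 of 7 did, Pnpla2 and Cd36, the latter with 13.197 as highest chromium restriction value and 13.202 as lowest control. Fabp4 differed by -0.038, Pnpla2 by -0.35 and Plin1 by -0.44. Adipoq (-1.22) and Retn (1.51), in rows with extra digits, were called, against 0.104% of all genes called lower and 0.0902% higher. The part of any of these tissues in the members' results was not tested. In bulk tissue fewer cells of a type and less RNA per cell cannot be told apart.

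Of 23 measured mitochondrial members 20 had a lower mean in the chromium restriction group, with a median difference of -0.40, and of 7 peroxisomal members 3 did, with a median of 0.016. Over all genes 56.8% were lower and the median was -0.018. All 3 chromium restriction arrays lay below all 3 controls for 15 mitochondrial and 0 peroxisomal members, where this held for 6.06% of all genes. In rows without extra digits (below) 18 of 21 mitochondrial members were lower, with a median of -0.39, and 13 lay below all controls. No member lay above all controls on every chromium restriction array, a pattern of 3.53% of all genes.

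**Figure D1:**
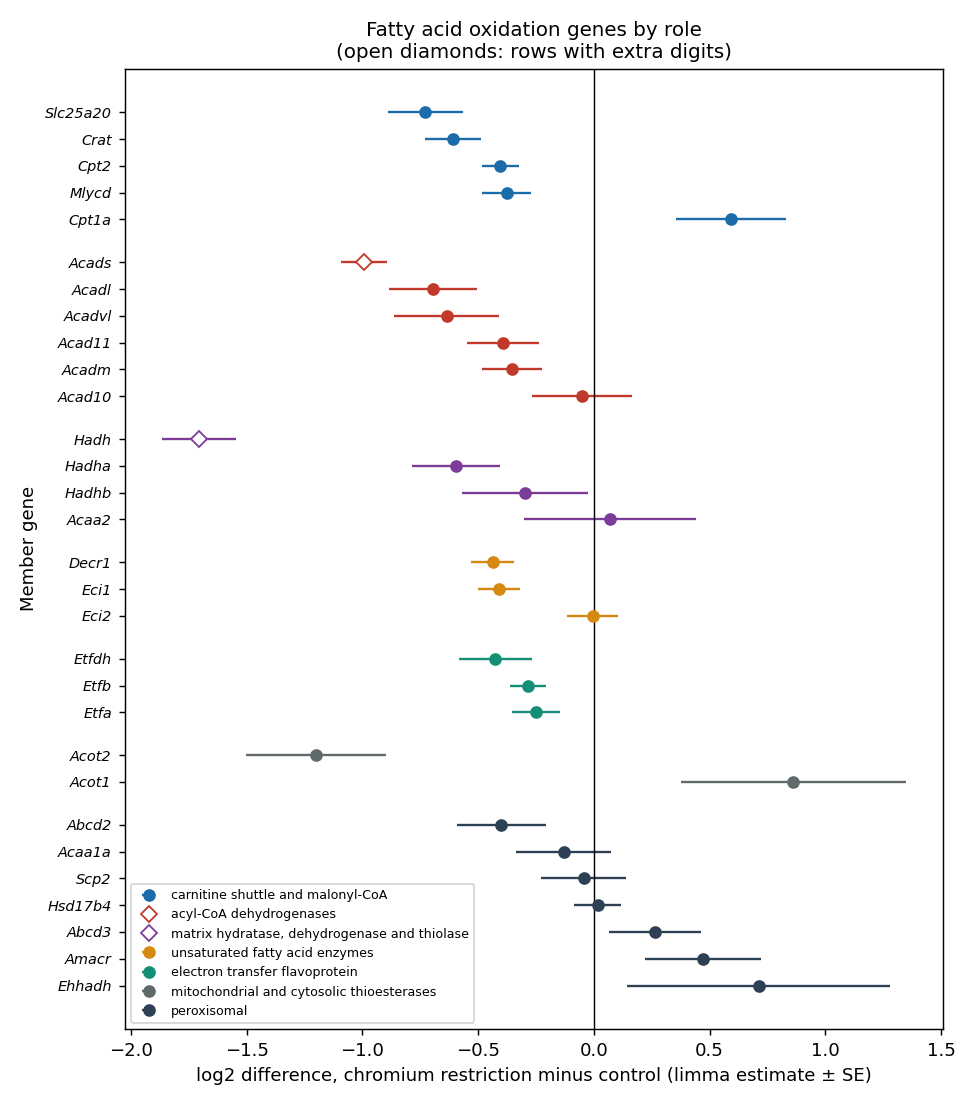
Log2 difference (chromium restriction minus control, x axis) of the 30 measured members, grouped by role on the y axis; points are limma estimates and bars their standard error, from 3 arrays per group, and open diamonds mark rows with extra digits. Most mitochondrial members lie left of zero, with Cpt1a at 0.59 and Acot1 at 0.86 as the clear exceptions, and the peroxisomal members lie on both sides.

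After correction 2 members were called, Hadh and Acads, both lower, against 0.104% of all genes called lower. None of the 30 was called higher, against 0.0902% of all genes. Neither call remained when chromium restriction replicate 3 or any 1 control was left out (limma adjusted p of 0.0816 to 0.14 for Hadh and 0.0977 to 0.193 for Acads), or with liver genes or Ucp1 as covariate (0.0893 and 0.319 for Hadh, 0.146 and 0.437 for Acads). That of Acads was also lost without chromium restriction replicate 1 (0.0814) and with median centring (0.0802). Both called genes are among the rows with extra digits, in which some values were written with more digits than the single-precision numbers that fill the rest of the deposited table; such rows made up 0.234% of all genes (52 of 22180) and 2 of the 30 members. In both genes the 3 chromium restriction values carried the extra digits and the 3 control values did not. No source used here says how these values were made. Among the 28 members in plain rows 0 were called and the smallest adjusted p was 0.462. At an unadjusted p under 0.05, 14 of these 28 were lower and 1, Cpt1a, was higher, where 3.53% of all genes were lower and 2.42% higher by that rule.

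The steps were read in the order of the pathway, beginning with entry into the mitochondrion. Cpt1a, the liver form of the outer-membrane carnitine palmitoyltransferase that sets the rate of entry, was at 9.57, 8.75 and 9.37 in chromium restriction replicates 1 to 3 and at 8.39, 8.62 and 8.91 in the controls. Replicates 1 and 3, the arrays rich in liver transcripts, were above every control, and replicate 2 lay within the control range. Its difference was 0.59 ± 0.24 (SE, n = 3 per group; limma adjusted p = 0.817), and with replicate 2 as the lone chromium restriction array it was 0.11.

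The other members of the carnitine shuttle had lower means in the chromium restriction group. Cpt2, the inner-membrane palmitoyltransferase, was at 9.41, 9.57 and 9.44 against 9.80, 9.90 and 9.93 (limma difference -0.40 ± 0.08 SE, adjusted p = 0.462). Crat, which makes acetylcarnitine, was at 9.28, 9.72 and 9.47 against 10.13, 10.10 and 10.06 (limma difference -0.61 ± 0.12 SE, adjusted p = 0.471). In both genes every chromium restriction array lay below every control, replicate 2 being the nearest to them. A dimmer probe set of Crat differed by 0.020, so the mean of the Crat probe sets differed by -0.29.

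Slc25a20, the carnitine-acylcarnitine carrier, was at 8.99, 8.98 and 8.66 against 9.90, 9.39 and 9.53, a 1.66-fold lower mean (limma adjusted p = 0.547). The groups did not overlap, and control replicate 1 was the highest. Mlycd, the decarboxylase that removes malonyl-CoA, the inhibitor of carnitine palmitoyltransferase 1, was at 6.71 to 6.88 against 7.04 to 7.35, also without overlap.

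The promoter window of Slc25a20 is shown because it was 1 of 2 among the members to hold a pair of AGGTCA copies spaced by 1 base, the arrangement that PPAR and RXR bind together, with at most 2 mismatches over the 12 letters. Windows ran from 250 bases before to 50 after the RefSeq start (build GRCm38.p6), both strands were searched, and 24 members had 25 windows. Such a pair was in 8.0% of member windows and 3.9% of all 32851 windows, and the letters AGGTCA alone were in 16.0% and 16.3%. The capitals mark the pair, which begins 6 bases past the annotated start in Slc25a20 (chr9:108661886-108662185, plus strand) and 77 bases before it, on the opposite strand, in Etfa (chr9:55512194-55512493, minus strand, printed in the direction of the gene). A match is a description of the letters and not a binding site.
Slc25a20: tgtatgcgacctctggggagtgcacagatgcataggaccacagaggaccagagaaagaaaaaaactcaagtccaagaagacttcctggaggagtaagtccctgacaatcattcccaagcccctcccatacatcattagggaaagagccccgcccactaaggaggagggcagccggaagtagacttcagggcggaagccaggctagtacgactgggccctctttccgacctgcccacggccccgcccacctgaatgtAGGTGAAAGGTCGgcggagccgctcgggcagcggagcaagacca
Etfa: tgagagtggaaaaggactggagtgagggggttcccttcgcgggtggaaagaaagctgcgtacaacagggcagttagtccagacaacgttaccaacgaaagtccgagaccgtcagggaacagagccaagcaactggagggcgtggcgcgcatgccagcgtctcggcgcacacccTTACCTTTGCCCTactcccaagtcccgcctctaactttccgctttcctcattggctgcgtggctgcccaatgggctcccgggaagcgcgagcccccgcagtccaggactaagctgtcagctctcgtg

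The acyl-CoA dehydrogenases of Acads, Acadm, Acadl and Acadvl open each round of beta-oxidation, each for a range of chain lengths. With Acad10 and Acad11, 6 of the measured members belonged to this family. All 6 had a lower mean in the chromium restriction group, Acad10 with a difference of only -0.050. Acads, for short chains, was listed at 7.67, 7.86 and 7.90 against 8.81, 8.69 and 8.92, a 1.99-fold lower mean (limma difference -0.99 ± 0.10 SE, adjusted p = 0.0254). The listed values of the groups lay 0.79 apart at the nearest, and the chromium restriction values are those with extra digits. Acadl, for long chains, was at 10.96, 11.47 and 11.33 against 12.27, 11.88 and 11.70 (limma difference -0.70 ± 0.19 SE, adjusted p = 0.707).

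Acadvl, for very long chains, was at 8.80, 8.80 and 8.52 against 9.85, 9.05 and 9.12 (limma difference -0.64 ± 0.23 SE, adjusted p = 0.813). Control replicate 1, where Ucp1 was highest, stood 0.77 above the mean of the other controls, and without that array the Acadvl difference was -0.38. Acadm, for medium chains, differed by -0.35, with chromium restriction arrays at 11.80 to 11.98 and controls at 12.07 to 12.51. Acad11 differed by -0.39 with overlap of the groups, and Acad10 by -0.050, with controls spread from 6.06 to 6.93; its sign turned in 7 of 21 alternative settings.

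Hadha and Hadhb encode the alpha and beta subunits of the trifunctional protein, which carries out the last steps on long chains. Hadha was at 10.84, 10.80 and 10.72 against 11.83, 11.17 and 11.15, without overlap (limma difference -0.60 ± 0.19 SE, adjusted p = 0.770). Hadhb was at 4.97, 5.48 and 5.50 against 6.17, 5.23 and 5.44, values around the array medians of 5.44 to 5.57, and the groups overlapped (limma difference -0.30 ± 0.27 SE, adjusted p = 0.969). Control replicate 1 was the highest array for both, by 0.67 and 0.83 over the mean of the other controls, and without it the difference was -0.37 for Hadha and -0.020 for Hadhb. With Ucp1 as covariate that of Hadha was -0.27.

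These genes are neighbours on chromosome 5 and point away from each other. Their RefSeq starts are separated by 272 bases, so their promoter windows share 228 bases (chr5:30155003-30155230, plus strand, GRCm38.p6). This stretch is printed here because it lies between the starts of the subunit genes. Its GC content is 57.0%, and neither window held the paired AGGTCA letters within 2 mismatches.
Hadha and Hadhb: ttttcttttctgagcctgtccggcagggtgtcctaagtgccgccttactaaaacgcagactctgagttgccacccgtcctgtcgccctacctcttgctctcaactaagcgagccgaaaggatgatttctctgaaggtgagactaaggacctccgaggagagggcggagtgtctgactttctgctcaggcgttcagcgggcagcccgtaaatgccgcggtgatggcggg

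Hadh, the dehydrogenase for medium and short chains, had the widest difference of all members. It was listed at 10.06, 10.57 and 10.55 against 12.26, 12.03 and 12.01, a 3.27-fold lower mean (limma difference -1.71 ± 0.16 SE, adjusted p = 0.0174), and the listed groups lay 1.44 apart at the nearest. As in Acads, the 3 chromium restriction values carry extra digits, and with these set to missing no difference can be computed for either gene. Acaa2, the thiolase of the last step, was at 9.74, 8.67 and 9.61 against 9.86, 8.80 and 9.14, with overlapping groups and a difference of 0.070.

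**Figure D2:**
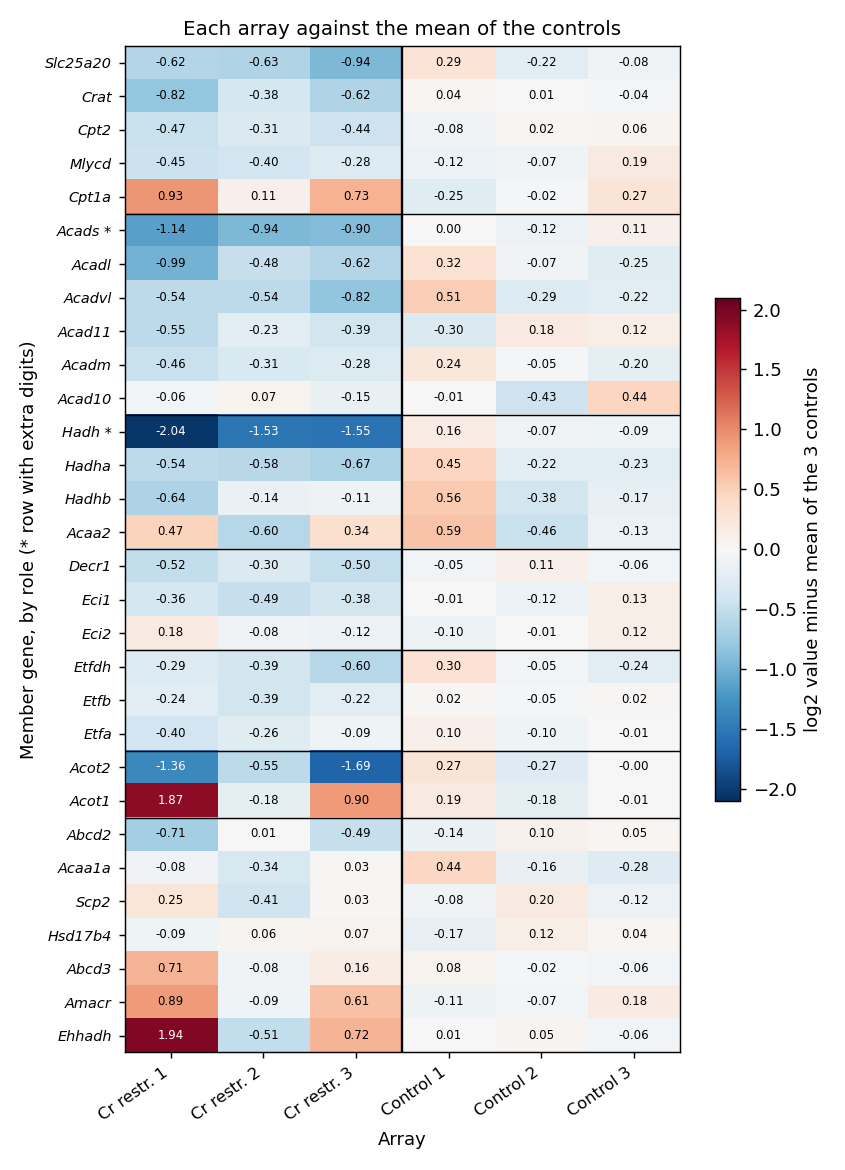
Each cell is the log2 value of 1 array (columns) minus the mean of the 3 controls for 1 member (rows, grouped by role); blue is lower, red is higher, and an asterisk marks a row with extra digits. The 3 chromium restriction columns are blue for most mitochondrial members, while Cpt1a, Acot1, Ehhadh, Amacr and Abcd3 are red in replicates 1 and 3. In replicate 2 Cpt1a is at 0.11, and Acot1, Ehhadh, Amacr and Abcd3 are at -0.52 to -0.077.

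Unsaturated chains need isomerases and a reductase. Decr1, the dienoyl-CoA reductase, was at 8.16, 8.37 and 8.17 against 8.62, 8.78 and 8.61 (limma difference -0.44 ± 0.09 SE, adjusted p = 0.547). Eci1, the mitochondrial enoyl-CoA isomerase, was at 9.40, 9.27 and 9.38 against 9.75, 9.64 and 9.89 (limma difference -0.41 ± 0.09 SE, adjusted p = 0.547). Neither gene overlapped between groups or had its highest value in control replicate 1. Eci2, an isomerase found in mitochondria and peroxisomes, differed by -0.0050 with full overlap, and by 0.010 after quantile normalization.

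The electron transfer flavoprotein and its dehydrogenase link these enzymes to the respiratory chain. Etfb was at 9.65 to 9.82 against 9.99 to 10.06 and Etfdh at 10.08 to 10.39 against 10.44 to 10.98, both without overlap, with differences of -0.28 and -0.43. Etfa was at 10.51 to 10.82 against 10.82 to 11.01 and differed by -0.25; its highest chromium restriction value, in replicate 3, was just above its lowest control.

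Acot1 and Acot2 encode thioesterases that release free fatty acids from acyl-CoA, in the cytosol and in mitochondria, and are neighbours on chromosome 12. Acot2 was at 9.18, 9.99 and 8.85 against 10.81, 10.27 and 10.54, a 2.30-fold lower mean without overlap (limma difference -1.20 ± 0.30 SE, adjusted p = 0.636). Acot1 was at 6.96, 4.90 and 5.99 against 5.28, 4.90 and 5.08 (limma difference 0.86 ± 0.49 SE, adjusted p = 0.877). The arrays rich in liver transcripts were the highest for Acot1 and the lowest for Acot2. Replicate 2 was the lowest array for Acot1, at 4.903 against 4.905 in control replicate 2. For Acot1 replicate 2 and the controls were all below the array medians of 5.44 to 5.57. The Acot1 difference was 0.36 without replicate 1 and 1.39 without replicate 2. These paralogs are close in sequence, and cross-hybridisation between their probe sets was not tested.

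**Figure D3:**
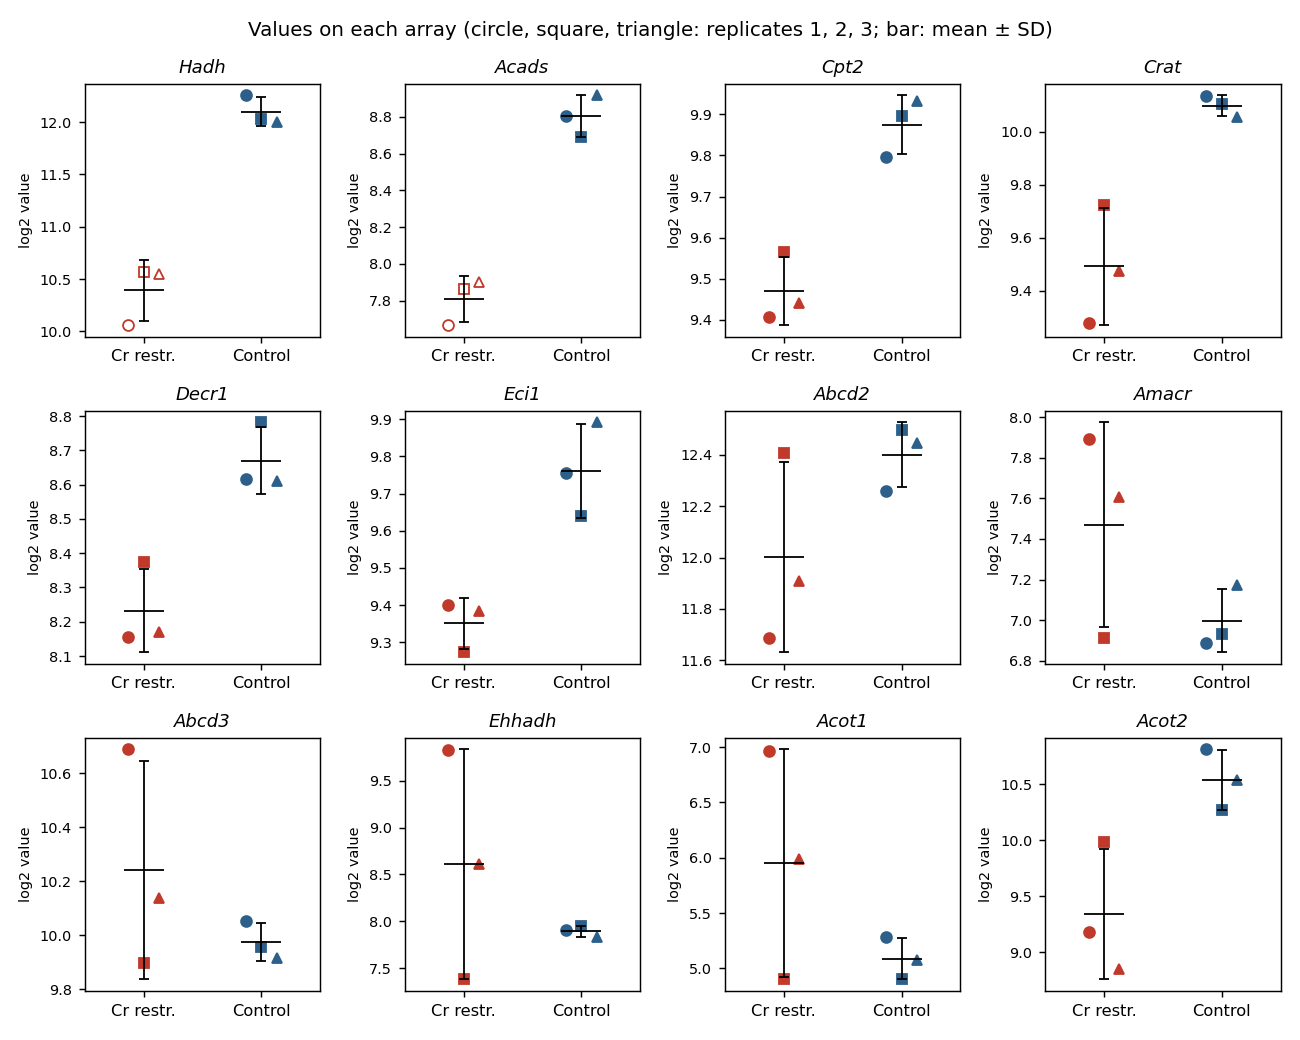
Log2 value on each array (y axis, a separate scale per gene, not starting at 0) for 12 members; circle, square and triangle are replicates 1, 2 and 3, open symbols carry extra digits, and the bar is the mean ± SD of 3 arrays. Hadh, Acads, Cpt2, Crat, Decr1, Eci1 and Acot2 show separate groups, whereas Amacr, Abcd3, Ehhadh and Acot1 have chromium restriction replicates 1 and 3 above all controls and replicate 2 near or below them.

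Among peroxisomal members the transporters came first. Abcd2, which imports very long chains and is abundant in adipocytes, was at 11.69, 12.41 and 11.91 against 12.26, 12.50 and 12.45 (limma difference -0.40 ± 0.19 SE, adjusted p = 0.828). Replicate 2 lay within the control range and the liver-rich replicates below it, and with replicate 2 alone the difference was 0.0080. Abcd3, another importer, was at 10.69, 9.90 and 10.14 against 10.05, 9.96 and 9.92 (limma difference 0.26 ± 0.20 SE, adjusted p = 0.943), and its difference was 0.042 without replicate 1 and 0.44 without replicate 2.

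Ehhadh, the bifunctional hydratase and dehydrogenase, was at 9.83, 7.38 and 8.61 against 7.90, 7.95 and 7.83 (limma difference 0.71 ± 0.57 SE, adjusted p = 0.947). Replicates 1 and 3 were above and replicate 2 below every control, and the difference was 0.10 without replicate 1 and 1.33 without replicate 2. Amacr, the racemase for branched chains, was at 7.89, 6.91 and 7.61 against 6.89, 6.93 and 7.17 (limma difference 0.47 ± 0.25 SE, adjusted p = 0.849), with replicate 2 inside the control range, and differed by 0.26 without replicate 1 and 0.75 without replicate 2.

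The other 3 peroxisomal members differed little between group means. Hsd17b4, the multifunctional enzyme of very long and branched chains, differed by 0.016, and by -0.0010 after median centring. Scp2, the thiolase and sterol carrier, differed by -0.044 and Acaa1a, the straight-chain thiolase, by -0.13, each with overlapping groups.

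Members were counted by the array on which they were high, under rules that by definition exclude each other. In 5 of 30 members (16.7%), Cpt1a, Acot1, Ehhadh, Abcd3 and Amacr, both liver-rich arrays were above the other 4, against 8.31% of all genes. In 14 members (46.7%), 13 of them mitochondrial, control replicate 1 was the highest array, against 17.4% of all genes. Among these were Hadha, Hadhb, Acadvl, Acaa2, Acaa1a, Acadl, Etfdh and Slc25a20, each 0.44 to 0.89 above the mean of the other controls. Etfb and Crat were only 0.035 and 0.056 above it. Acaa2, at 9.86 in control replicate 1, was also high in chromium restriction replicates 1 and 3. It was at 9.74 and 9.61 there, against 8.67 to 9.14 on the remaining arrays. For the 15 mitochondrial members with all chromium restriction arrays below all controls, the highest array was bound to be a control. The share over all genes is therefore not a like comparison for them. The part of liver or brown fat RNA in these differences was not tested.

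**Figure D4:**
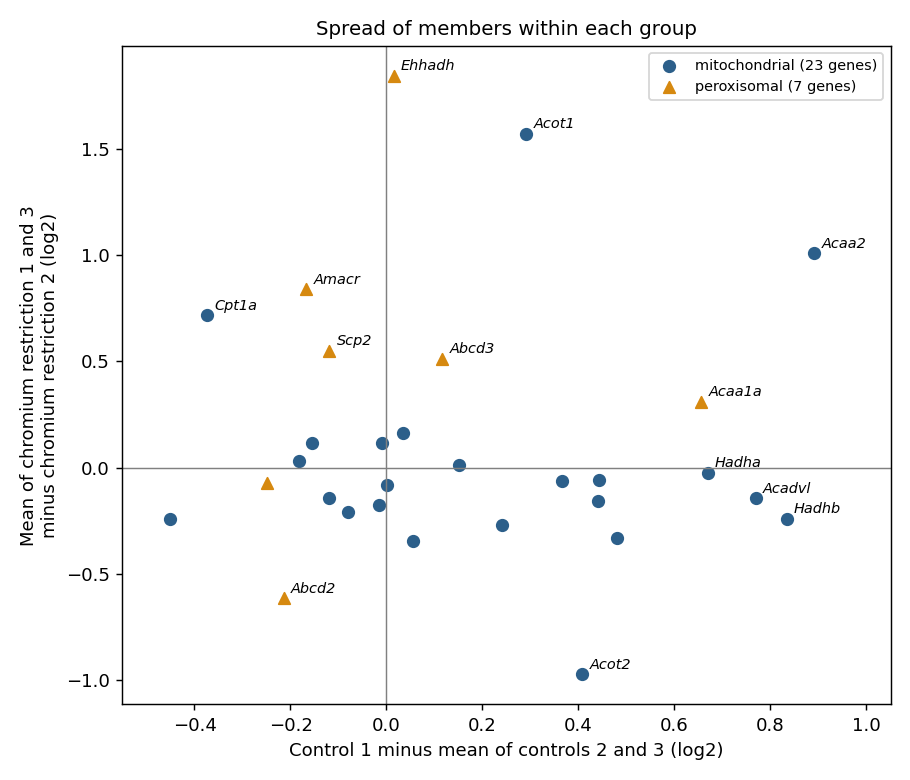
Spread within groups for the 30 members: x axis, control replicate 1 minus the mean of controls 2 and 3; y axis, the mean of chromium restriction replicates 1 and 3 minus replicate 2 (both log2). Ehhadh at 1.84 and Acot1 at 1.57 are highest on the y axis, and Acot2 at -0.97 is lowest. Acaa2 lies farthest right, at 0.89, and at 1.01 on the y axis. Hadhb, Acadvl and Hadha lie to the right near zero on the y axis.

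The members were also counted array by array. Chromium restriction replicate 2 was below all 3 controls for 18 of 23 mitochondrial and 4 of 7 peroxisomal members. This was 73.3% of the 30 against 25.9% of all genes. Replicate 2 was above all controls for 0 members, against 18.8% of all genes. Of the 12 liver markers 8 were also below all 3 controls on this array and 1 was above. Their median difference from the control mean was -0.40 there. This array had the highest mean of intestinal markers, whose part was not tested. Without control replicate 1 all chromium restriction arrays were below both other controls for 16 mitochondrial members and 1 peroxisomal member, against 12.1% of all genes. No comparison avoids every array with raised liver, brown fat or intestinal markers. Against control replicate 2 alone, where Ucp1 was at 4.89, the counts were 16 and 2, with 28.3% of all genes.

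In the comparison of chromium restriction replicate 2 with control replicate 2, neither rich in liver or brown fat transcripts, 27 of 30 members were lower, with 55.3% of all genes lower. The median difference was -0.33 for mitochondrial and -0.089 for peroxisomal members, from 1 array each and with no test. Acad10, Hadhb and Cpt1a were the 3 members that were higher. Of the 12 liver markers 10 were lower in this comparison, with a median difference of -0.33.

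The rest of the pathway was read from lists chosen by function. Of 21 other mitochondrial and ketone enzymes 18 were lower and 4 were called, all lower and all in rows with extra digits: Echs1, the short-chain enoyl-CoA hydratase (-0.93), and Ivd (-1.11), Acadsb (-0.90) and Pccb (-0.86) of amino acid breakdown. Their limma adjusted p ran from 0.0095 to 0.0122, and the median of the list was -0.31, or -0.24 without these rows. Over all genes 56.8% were lower, 0.104% were called lower and 0.234% lay in rows with extra digits.

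Of 27 other peroxisomal enzymes 13 were lower and 14 higher, and limma called 0, with 3 lower and 1 higher at an unadjusted p under 0.05 (3.53% and 2.42% of all genes). In 10 of them both liver-rich arrays were above the other 4, against 8.31% of all genes, among them the acyl-CoA synthetase gene Slc27a2, at 10.99 and 10.28 against 5.11 to 6.89 elsewhere (chosen after its values were seen). Nudt7, which hydrolyses coenzyme A in peroxisomes, was at 7.79 to 7.85 against 8.15 to 8.41 (limma difference -0.45 ± 0.09 SE, adjusted p = 0.446). The nudix hydrolase gene Nudt19 differed by -0.30 and the catalase gene Cat by -0.40.

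Of 15 peroxins and peroxisomal membrane proteins 12 were lower (56.8% of all genes), with a median of -0.29, and limma called 0, with 8 lower and 0 higher at an unadjusted p under 0.05 (3.53% and 2.42% of all genes). Pex3, which recruits membrane proteins to peroxisomes, was at 9.24 to 9.63 against a control mean of 9.94 ± 0.056 (SD, n = 3), without overlap (limma difference -0.54 ± 0.12 SE, adjusted p = 0.547). Its partner Pex19 differed by -0.44 and the membrane protein gene Pxmp4 by -0.47. In 0 of these 15 genes were the liver-rich arrays both above the other 4, or control replicate 1 the highest. Over all genes these shares were 8.31% and 17.4%.

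Of 21 regulators 2 were called, both in rows with extra digits: Pparg was listed higher by 1.98 and Ppard lower by 1.20 (limma adjusted p = 0.000841 and 0.00275). Over all genes 0.0902% were called higher and 0.104% lower. Acacb, which makes malonyl-CoA at the mitochondrion, was at 6.53, 7.12 and 6.63 against 8.52, 7.94 and 7.90, without overlap (limma difference -1.36 ± 0.23 SE, adjusted p = 0.260). Ppara, the receptor that drives these genes in liver, was at 7.55, 6.07 and 6.90 against 7.27, 6.05 and 6.54, a difference of 0.22 with full overlap. Ppargc1a, its coactivator, was at 5.96, 5.95 and 6.33 against 6.74, 5.97 and 6.54.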

How the data were processed

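Biotin-labelled adipose RNA was read on arrays of 1 colour, per the labels' protocols. The authors deposited 1 table of 33793 probe sets on 6 arrays, whose values (3.49 to 14.86, array medians 5.44 to 5.57) were taken to be log2; log base, summarisation and normalization were "not given in the sources used here". No further normalization or filter was applied. The platform annotation named 23521 probe sets by 1 symbol, left 8458 unnamed and gave several symbols to 1814. All 30 measured members matched the RefSeq gene table by gene identifier. No build is named for the arrays.

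A value had extra digits when its text was not the shortest form of a single-precision number; 183 of 202758 values did, 149 of them on chromium restriction arrays, in 64 probe sets. The group difference came from limma 3.58.1 in R 4.3.3 (lmFit, then eBayes), two-sided, and the code was tested on simulated data. The number of arrays limits the precision. Alternatives were other normalizations, filters, variance models, covariates and left-out arrays.

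Members, lists, tests and alternatives were chosen with earlier results of these data known. Per-array values were given for members past an adjusted p of 0.05, members in rows with extra digits, and the 6 mitochondrial and 4 peroxisomal members with the smallest unadjusted p; up to 3 genes of each pathway list were named by the same order, and Ppara and Ppargc1a in any case. Some listed genes are not reported here. Values of Cpt1a, Slc25a20, Acadl, Acadvl, Hadha, Hadhb, Acaa2, Acot1, Acot2, Acadsb and Slc27a2 were added after they were seen. Of other tissues, 9 skeletal muscle, 4 pancreas, 8 macrophage and 9 white adipocyte markers had median differences of 0.0060, 0.057, 0.28 and -0.14.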

Additional observations from a re-analysis of the deposited data

How the results depend on the processing

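The count of 2 called members became 1 with median centring and 0 in each of these settings: rows with extra digits left out, their values set to missing, liver genes as covariate, Ucp1 as covariate, chromium restriction replicates 1 and 3 left out, and control replicates 1 and 3 left out. Over all genes the 43 calls became 0, 0, 53, 9, 6 and 0 in those 6 settings. At an unadjusted limma p under 0.05 these settings held 15, 15, 10, 9, 7 and 8 members, and 1264, 1283 and 894 genes where no gene was called. Leaving out 1 array gave 0 to 4 called members and 24 to 439 called genes. The highest counts came without chromium restriction replicate 2, when Crat and Acot2 were called too (limma adjusted p = 0.0252 and 0.0172), and the lowest without chromium restriction replicate 3 or any 1 control, with 12 to 16 members at an unadjusted p under 0.05. Hadh stayed between -1.80 and -1.46 and Acads between -1.05 and -0.83 wherever they had a value. With the replicate number as a block 0 members and 0 genes were called (16 and 1337 at an unadjusted p under 0.05); same-numbered arrays deviated with correlations of -0.12, -0.095 and 0.078, so the numbers were not taken as pairs.

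The mitochondrial median moved beyond the spread of array medians (0.11) only with Ucp1 as covariate (-0.27). The signs of some members turned; the cause was not tested. With the liver covariate the difference was 0.032 for Acad10, -0.54 for Acaa2, -0.15 for Acot1, -0.48 for Ehhadh, -0.072 for Abcd3 and -0.071 for Amacr. Without chromium restriction replicates 1 and 3 it was 0.066, -0.60, -0.18, -0.52, -0.077 and -0.087 for these, and 0.0080 for Abcd2. With the Ucp1 covariate it was 0.14 for Acad10, 0.17 for Hadhb, 0.17 for Acaa1a and -0.12 for Hsd17b4, and without control replicates 1 and 3 it was 0.38, 0.084, 0.032 and -0.11 for these and 0.0090 for Eci2. Quantile normalization gave 0.010 for Eci2 and median centring -0.0010 for Hsd17b4. Chromium restriction replicate 2 against control replicate 2, chosen after seeing the data, gave 0.50 for Acad10, 0.24 for Hadhb, -0.14 for Acaa2, -0.0020 for Acot1, -0.57 for Ehhadh, -0.059 for Hsd17b4, -0.059 for Abcd3 and -0.021 for Amacr. Leaving out 1 array gave -0.27 to 0.17 for Acad10, -0.16 to 0.41 for Acaa2, -0.099 to 0.053 for Eci2, -0.27 to 0.088 for Acaa1a, -0.067 to 0.077 for Hsd17b4 and -0.19 to 0.14 for Scp2.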
